A study of Homo sapiens with 17 samples.

Results

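RNA polymerase pausing sites with the shortest fitted pausing times in both sarkosyl series of HEK293 cells are described here. A site is a genomic position and strand with a fitted pausing time. The members were selected on the deposited pausing times themselves: over the 18016 sites that both sarkosyl tables list, the 10% quantile of pausing time was taken in each table, and a site was kept when it lay at or below that quantile in both. The quantiles were 0.668 in replicate 1 and 0.858 in replicate 2, and 892 of the 18016 shared sites (4.95%) were kept. The other 17124 shared sites are the background throughout, and the 4 tables together list 158141 sites.

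The study applied time-variant precision run-on sequencing to HEK293 cells, an established human embryonic kidney line. Permeabilised cells were given labelled nucleotides for 0.5, 2, 8 or 32 min, with sarkosyl in the run-on buffer or without it, in 2 replicates each. Sarkosyl, a detergent, removes many chromatin proteins and blocks new initiation, but polymerases already engaged can still extend their RNA. Of 17 samples listed, 16 libraries belong to this design, and 1 sample labelled Trp treatment, run on with sarkosyl, was not analysed here. No genetic change or further treatment of the 16 libraries is named in the labels, and nothing in them says whether replicates came from separate cultures. Each table, called a series below, holds 1 value per site over the 4 run-on times of a buffer and replicate. The unit of time was not stated, so times are printed as deposited. The tables hold no read numbers, so the depth behind a site is unknown, and they hold no expression levels against which markers of the cell line could be checked.

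Polymerase II commonly stops shortly after it starts, held there by the factors DSIF and NELF until the kinase P-TEFb releases it. Polymerase III makes tRNAs from short genes whose promoter elements, the A and B boxes, lie inside the transcribed gene. Polymerase I transcribes the ribosomal DNA repeats, and a separate single-subunit polymerase transcribes the mitochondrial chromosome. A run-on assay records the engaged polymerases of all of these.

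Sequences around some members in tRNA genes are shown first, because these genes held the highest share of short pauses. Each runs 5′ to 3′ on the strand of the site, and the capital marks the listed base. The bases were read from GENCODE 29 transcripts or RefSeq promoter windows on GRCh38, and whether the tables count positions from 0 or from 1 was not stated.
TRR-ACG2-1, chr3:45689010-45689039, minus strand: tacggatcagaagaTtctaggttcgactcc
TRR-TCT1-1, chr1:93847624-93847653, plus strand: tcaaaggttccgggTtcgagtcccggcgga
TRG-GCC2-1, chr1:161523851-161523880, minus strand: gcgggaggcccgggTtcgattcccggccaa
TRG-GCC2-4, chr16:70779043-70779072, minus strand: gcgggaggcccgggTtcgattcccggccaa
TRP-TGG3-5, chr16:3188140-3188169, plus strand: cccgggttcaaatcCcggacgagccccctt

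The next set lies shortly after annotated transcript starts, the place that held the most members. SNHG12 and EPB41L4A-AS1 host small nucleolar RNAs, HEXIM1 encodes an inhibitor of P-TEFb, and EIF3K encodes a subunit of a translation initiation factor.
SNHG12, chr1:28581817-28581846, minus strand: cgacttactagctgCaagcctctgcctgcc
EPB41L4A-AS1, chr5:112160897-112160926, plus strand: ttttgctctgggtcCtctgggatggcgcct
HEXIM1, chr17:45148518-45148547, plus strand: agtcgggggaggacGcggaagaggagctgt
EIF3K, chr19:38619230-38619259, plus strand: gttagcctccagccCtggttgtggaaggcg

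The pausing times with sarkosyl chose the members and are given as a description. Where times of a member with and without sarkosyl are printed together below, the former are low by the rule. Such pairs are no comparison of the buffers. The median member time was 0.562 in replicate 1 and 0.743 in replicate 2, against 1.56 and 1.52 for the other shared sites. At or below the quantile lay 1807 sites in replicate 1 and 1802 in replicate 2, and 915 and 910 of these were short in that table alone. The quantile cut through closely spaced values: the 5 sites just inside it had times of 0.668 in replicate 1 and 0.856 to 0.858 in replicate 2, and the 5 just outside had 0.668 to 0.670 and 0.858 to 0.859. The authors' own spread per site, the upper over the lower quartile of the fitted rate, had a median of 2.11 and 2.47 at members and of 2.81 and 3.54 at the others.

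**Figure D1:**
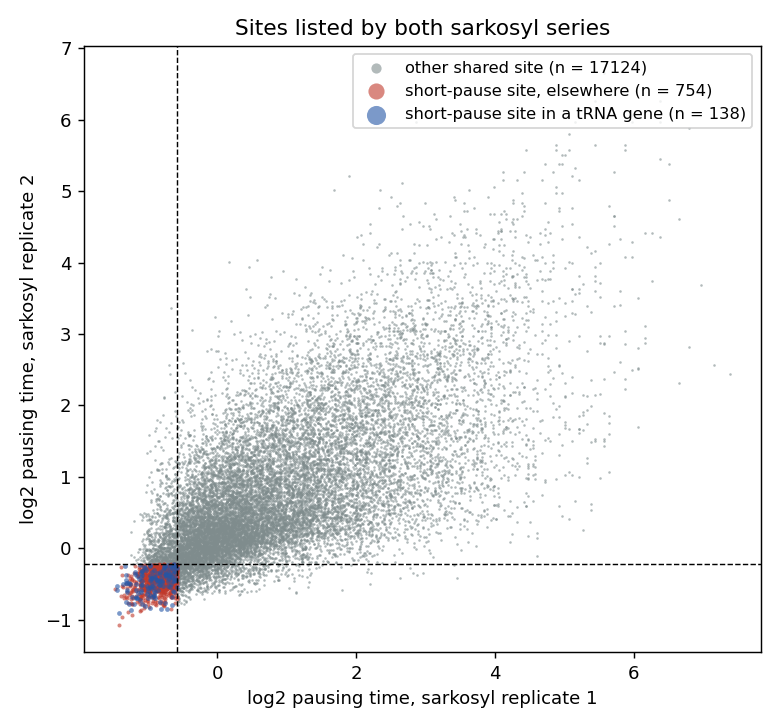
Each point is 1 of the 18016 sites that both sarkosyl series list, placed by its log2 pausing time in replicate 1 (x axis) and replicate 2 (y axis), with time in the unstated unit of the tables. Dashed lines mark the quantiles at 0.668 and 0.858, and the 892 coloured points in the lower left corner are the short-pause sites, 138 of them in nuclear tRNA genes.

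Place in the genome was not used to choose the members. Sites were put into exclusive classes, in this order: nuclear tRNA genes, the mitochondrial chromosome, ribosomal DNA, nuclear copies of mitochondrial genes, other small RNA genes, and then distance from the start of any annotated transcript on the same strand. Short pauses made up 61.6% of the shared sites in nuclear tRNA genes (138 of 224, Wilson 95% interval 55.1 to 67.7). The share was 14.4% in ribosomal DNA (40 of 277, interval 10.8 to 19.1), 9.64% on contigs without annotation (19 of 197) and 9.28% at 0 to 60 bp after a start (255 of 2748, interval 8.25 to 10.4). The intervals cover the count of sites only, and neighbouring sites are not independent. Copies of repeated sequence, as in tRNA genes, ribosomal DNA and nuclear copies of mitochondrial genes, were counted as separate sites. They are not independent where reads are shared between copies.

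The classes within genes held the lowest shares. Of sites beyond 300 bp from a start, 1.80% were members in exons (31 of 1721) and 1.83% in introns (54 of 2945). At 61 to 300 bp after a start the share was 3.27% (80 of 2444), and outside genes it was 2.72% (87 of 3196). Upstream antisense transcription, within 1000 bp of a coding start on the opposite strand, held 5.43% (79 of 1454). The mitochondrial chromosome held 4.30% (37 of 860), nuclear copies of mitochondrial genes 4.07% (15 of 369) and other small RNA genes 4.36% (14 of 321), all close to the 4.95% over all shared sites. Up to 10000 bp past the end of a coding gene, and in no annotated gene on their strand, lay 6.28% of members and 16.7% of the other shared sites.

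**Figure D2:**
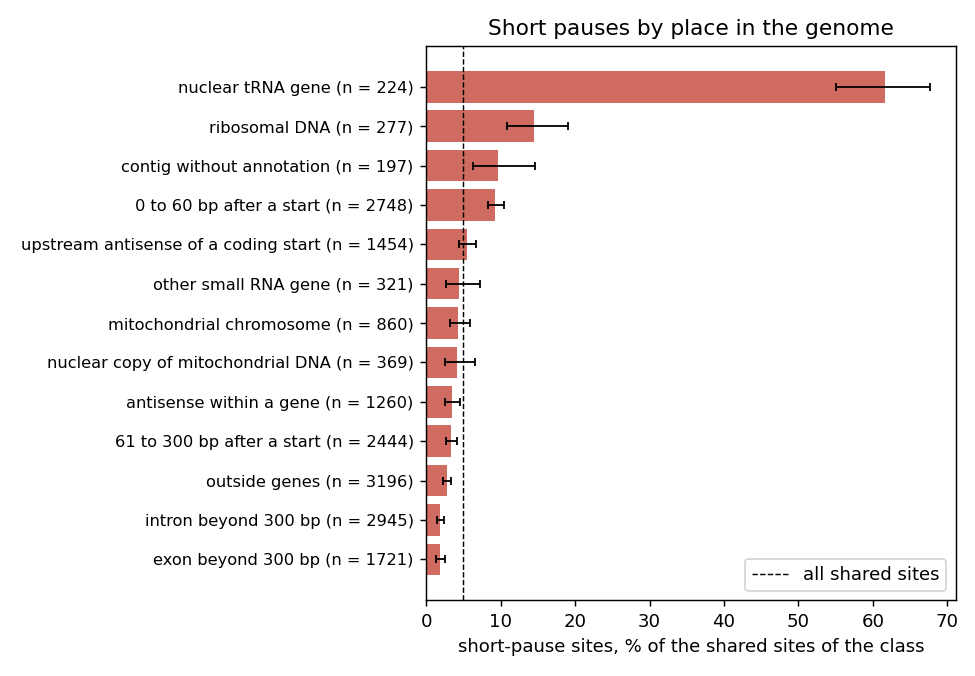
Bars give short-pause sites as a percentage of the shared sites of each class, with the number of shared sites in brackets, Wilson 95% intervals as whiskers, and a dashed line at the 4.95% of all shared sites. Nuclear tRNA genes stand at 61.6%, while exons and introns beyond 300 bp stand at 1.80% and 1.83%.

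Nuclear tRNA genes supplied 15.5% of the members and 0.502% of the other shared sites. The RefSeq table holds 443 nuclear tRNA genes, of which 159 had a shared site and 111 had a member, and the sites of each of the 159 genes lay on 1 strand. In the 30 bp on either side of these genes only 13 of 212 sites (6.13%) were members. Chromosome 6, which carries a large cluster of tRNA genes, held 88 members, and 39 of them (44.3%) lay in tRNA genes. The class of tRNA genes was formed after the values had been seen. Many tRNA genes have identical or nearly identical copies, and how the authors assigned reads that fit several copies is not given in the sources used here.

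Within the genes the sites had a narrow placement. No shared site lay in bases 1 to 25 of a tRNA gene, counted on the strand of the sites, and the first member lay at base 26. The median base was 60 for members and 61 for the others. Bases 59 to 63 held 61 of the 138 members (44.2%) and 33 of the 86 other sites (38.4%), so this stretch was common to both. Single bases differed more, in both directions: for example, base 59 held 15 members and 0 other sites, and base 32 held 6 and 0. Base 36 held 1 member and 7 other sites, base 41 held 3 and 7, and base 31 held 4 and 7. Base 61 held 24 and 21. Of the 15 members at base 59, 13 lay in arginine tRNA genes.

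**Figure D3:**
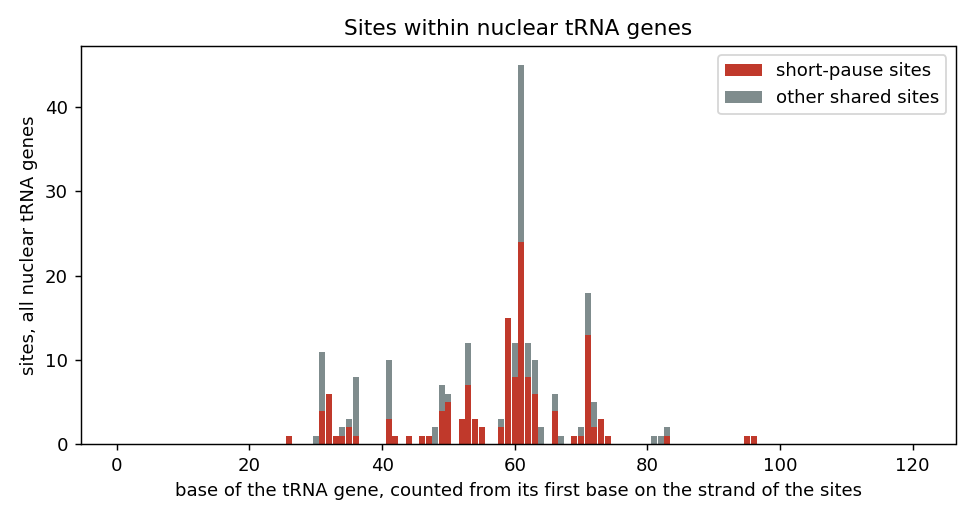
Stacked bars count the shared sites at each base of the nuclear tRNA genes (x axis, from the first base on the strand of the sites), short-pause sites in red and other shared sites in grey. The highest bar is base 61 with 24 short-pause and 21 other sites, and no site lies in bases 1 to 25.

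In some families of tRNA genes the members recurred at the same base of several genes. All 14 members in proline tRNA genes lay at base 61, in 14 genes, with times of 0.368 to 0.574 in sarkosyl replicate 1 and 0.631 to 0.845 in replicate 2. Among arginine tRNA genes 13 of 30 members lay at base 59, among serine tRNA genes 13 of 22 at base 71, among lysine tRNA genes 7 of 9 at base 62, and among glycine tRNA genes 8 of 21 at base 60. Leucine tRNA genes had no such base, with 12 members spread from base 44 to base 96 and at most 2 at any base, and valine tRNA genes had at most 2 of 7 at any base. The genes differ in length between and within families, and bases were counted from the first base without aligning the genes. Whether differing bases, or the spread in leucine genes, go with gene length was not tested. The share of shared sites that were members was 87.5% in proline (14 of 16), 81.1% in arginine (30 of 37), 68.8% in serine (22 of 32) and 63.6% in glycine tRNA genes (21 of 33). It was 31.8% in glutamate tRNA genes (7 of 22), and none of the 5 sites in aspartate tRNA genes was a member. Copies are not independent observations where reads are shared between them.

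The 3 copies of the arginine gene TRR-ACG1 held 12 members, 4 per gene, which was every shared site in them. TRR-ACG1-1 lies at chr6:26328140-26328212, TRR-ACG1-2 at chr6:26537498-26537570 and TRR-ACG1-3 at chr14:22929701-22929773. In TRR-ACG1-1 the site at base 59 (chr6, 26328198) had times of 0.593 and 0.781 with sarkosyl, and 0.183 and 0.143 in its absence. The site at base 59 of TRR-ACG1-2 (chr6, 26537556) had 0.615 and 0.769 in the sarkosyl series, against 0.185 and 0.134 in the sarkosyl-free series. Base 54 of TRR-ACG1-3 (chr14, 22929754), in an intron of the antisense RNA gene AL132780.1, had 0.405 and 0.670 with sarkosyl, and 0.172 and 0.147 without. Among the 234 members that both sarkosyl-free tables list, these 3 had the lowest mean log2 time without sarkosyl. Of the 12 members, 10 were listed in sarkosyl-free replicate 1, between 0.169 and 0.222, and 5 in replicate 2, between 0.134 and 0.165.

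The letters GGTTCNA, the core of the B box, were searched on both strands of 61-base windows around the listed base, and no other motif was searched. They were found in 18 of the 19 tRNA gene members with a readable window and in all 10 other tRNA gene sites with one. Over all 8152 readable windows they were found in 189 (2.32%), and outside tRNA genes in 15 of 401 members and 146 of 7722 other sites. In the 18 members they lay on the strand of the site. Counted from the first letter of the match, the listed base was the 11th in 7 of the 18, as in TRP-TGG3-5 above, and the 3rd in 4, as in TRR-TCT1-1 and both glycine genes. In TRR-ACG2-1 the listed base shown above came before the match. A match is a description of the letters only.

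Times without sarkosyl were not used by the rule. Of the members, 41.5% were listed in sarkosyl-free replicate 1 (370 of 892) and 34.6% in replicate 2 (309), against 26.8% and 23.2% of the other shared sites. At least 1 of these tables listed 49.9% of members and 34.1% of the others. Outside tRNA genes the corresponding shares were 46.9% of 754 members and 33.9% of 17038 others. Within some classes members were listed less often than the others. In nuclear copies of mitochondrial genes 0% of members and 35.3% of others were listed in replicate 1, and 20% and 26.0% in replicate 2. The mitochondrial chromosome is described below. Gaps were smaller in nuclear tRNA genes and ribosomal DNA. In nuclear tRNA genes 87 of 138 members and 56 of 86 others (65.1%) were listed in replicate 1, and 42.8% and 44.2% in replicate 2, and in ribosomal DNA the shares were 37.5% and 39.7%, and 27.5% and 30.8%.

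Where listed, members had shorter times than the other shared sites over all classes. In sarkosyl-free replicate 1 the member times ran from 0.144 through a median of 0.765 to 32.3, and those of the others from 0.150 through 1.19 to 45.5, a difference of medians of -0.64 on the log2 scale. In replicate 2 the members ran from 0.134 through 1.40 to 90.9 and the others from 0.128 through 1.71 to 200, a difference of -0.28. The ranges overlapped almost completely. Leaving out nuclear tRNA genes, the difference was -0.21 in replicate 1 (medians 1.04 and 1.21) and 0.37 in replicate 2 (medians 2.23 and 1.73), so its sign in replicate 2 turned.

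In tRNA genes both members and other sites were short without sarkosyl. The median was 0.217 at 87 members and 0.273 at 56 other sites in replicate 1, and 0.246 at 59 members and 0.347 at 38 other sites in replicate 2. Of the members there, 84 of 87 and 59 of 59 lay at or below the median of their sarkosyl-free table, 2.23 and 8.00. Both tables listed 55 members of these genes, and 48 of them had times under 1 in both. The 14 proline sites at base 61 ran from 0.154 through 0.204 to 0.575 in the 13 listed in replicate 1, and from 0.176 through 0.194 to 0.246 in the 11 listed in replicate 2.

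Shortly after transcript starts the order was the opposite. At 0 to 60 bp the members had a median of 1.16 in sarkosyl-free replicate 1 (n = 111) against 0.995 at the others (n = 825), a log2 difference of 0.22. In replicate 2 the medians were 4.45 (n = 96) and 1.75 (n = 647), a log2 difference of 1.35. At 61 to 300 bp the differences were -0.14 and 0.07, and at upstream antisense sites -0.37 and -1.99. With only 2 series per buffer, which differ this much in size, the differences by class are given without a test.

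**Figure D4:**
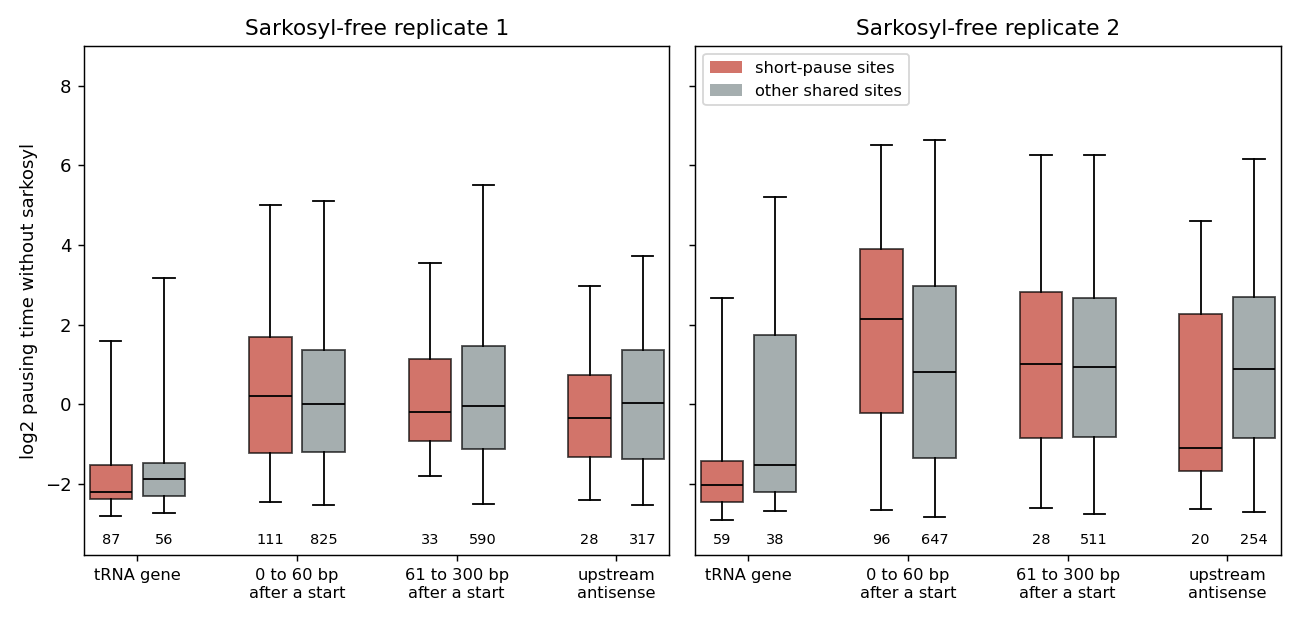
Boxes give the quartiles and median, and whiskers the full range, of log2 pausing time without sarkosyl (unstated unit of time) for short-pause sites in red and other shared sites in grey, by class and series, with the number of sites below each box. Short-pause sites in tRNA genes have medians of 0.217 and 0.246 on the linear scale, and those at 0 to 60 bp after a start have medians of 1.16 and 4.45, above the other sites of that class in both series.

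Each site listed in both sarkosyl-free tables was tested against the median of its series with limma, over all 13905 such sites, 234 of them members. After Benjamini-Hochberg adjustment no site was called shorter (0% of 13905) and 1 was called longer (0.00719%), which was no member, and the lowest adjusted p of a member was 0.0838. At an unadjusted p under 0.05, 102 of the 234 members were shorter (43.6%), against 16.1% of all sites tested and 792 of the 2733 other shared sites. Of these 102 members, 50 were among the 55 in tRNA genes, and 52 were among the 179 elsewhere (29.1%). Outside tRNA genes the share of members was thus close to that of the other shared sites. Longer at that level were 8 members (3.42%), none of them in tRNA genes, against 9.49% of all sites tested but 1.43% of the other shared sites (39 of 2733). With a prior fitted to the trend and robust to outliers, 65 members (27.8%) were called shorter at an adjusted p under 0.05, against 6.8% of all sites tested and 11.8% of the other shared sites. Of these 65, 45 lay in tRNA genes, and 20 were among the 179 members elsewhere. That prior called 10 members longer (4.27%), against 12.9% of all sites tested and 2.63% of the other shared sites.

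The rule itself was also applied to the sarkosyl-free pair. At or below the 10% quantile of both sarkosyl-free tables lay 43 of the 234 members (18.4%), against 2.48% of the 13905 sites and 4.50% of the other shared sites. Of these 43 members 33 lay in tRNA genes. At or above the 90% quantile of both lay 2 members, which is 0.855%, against 3.25% of all sites and 0.402% of the other shared sites (11 of 2733).

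Sites 0 to 60 bp after annotated starts formed the largest class of members, and the polymerase at each site was not recorded. Counting every start distance regardless of class, 261 members (29.3%) and 2602 other sites (15.2%) lay 0 to 60 bp after a start, with medians of 31 and 32 bp. The share of members was highest at 30 to 39 bp, at 6.95% of members against 2.76% of the others. From 61 to 300 bp the order was turned, with 12.1% of members and 16.6% of the others. Within 300 bp of a start lay 41.4% of members and 31.8% of the others.

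**Figure D5:**
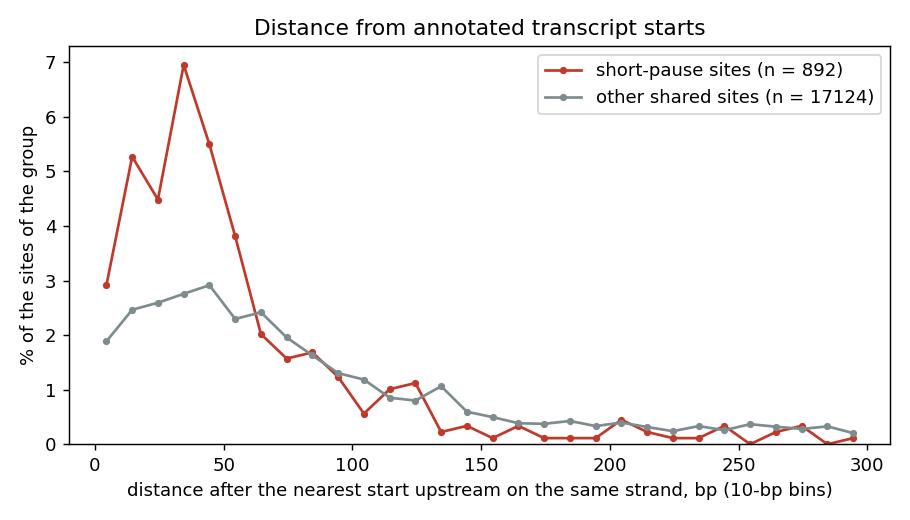
Lines give the percentage of the short-pause sites (red, n = 892) and of the other shared sites (grey, n = 17124) in each 10-bp bin of distance after the nearest annotated start upstream on the same strand. The red line reaches 6.95% at 30 to 39 bp, where the grey line is at 2.76%, and beyond 60 bp the red line lies below the grey line in most bins, with 12.1% against 16.6% in all from 61 to 300 bp.

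Some members near starts with long times without sarkosyl serve as examples. SNHG12 had a member 21 bp after a start (chr1, 28581832, exon) with times of 0.483 and 0.668 in the sarkosyl series, against 10.0 and 58.8 in the sarkosyl-free series. The member of EPB41L4A-AS1, 19 bp after a start (chr5, 112160911, exon), had 0.571 and 0.695 with sarkosyl, and 11.6 and 58.8 without. The member of HEXIM1, 30 bp after its start (chr17, 45148532, exon), had 0.574 and 0.673 with sarkosyl, and 27.8 and 14.5 without. Members of LINC00205 (12.82 and 45.45 without sarkosyl) and ZNF227 (8.547 and 62.5) had higher mean log2 times there than HEXIM1 but are not shown. SNHG12 and EPB41L4A-AS1 were named, and HEXIM1 shown, for their long times without sarkosyl. Most members 0 to 60 bp after a start were shorter than that: 75 of the 111 listed in sarkosyl-free replicate 1 and 58 of the 96 in replicate 2 lay at or below the medians of their tables, 2.23 and 8.00. The member of EIF3K (chr19, 38619244, exon, 33 bp after a start; 0.392 and 0.617) was listed in neither sarkosyl-free table. It was chosen for its low times with sarkosyl among sites near starts.

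The bases around members could be read for 420 members (47.1%) and 7732 other shared sites (45.1%), those whose surroundings lie within 1 annotated exon or promoter window. The listed base was C in 81.4% of members and 72.0% of the others, and G in 13.6% and 23.2%. The base before it was C in 62.4% and 54.7%, so that a pair of C bases ended at the site in 52.4% and 37.0%. At 4 bases before the site, T was found in 13.6% of members and 29.9% of the others. G or C made up 63.9% of the 10 bases before the site at members and 58.8% at the others, and GGG occurred in that stretch in 21.9% and 9.20%.

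Part of this difference in composition moved with place. At sites 0 to 60 bp after a start, G or C made up 67.2% of the 10 bases before members (n = 210) and 65.6% before the others (n = 2063), and elsewhere 60.6% (n = 210) and 56.3% (n = 5669). The listed C kept its higher share in both, at 83.8% against 67.1% near starts and 79.1% against 73.8% elsewhere. The pair of C bases ended at 52.9% of members and 33.2% of the others near starts. The SNHG12, EPB41L4A-AS1 and EIF3K sites above each list a C, and the HEXIM1 site lists a G.

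Members lay closer to other pausing sites. Another shared site lay within 50 bp on the same strand for 450 members (50.4%) and 5402 other sites (31.5%). The nearest such site was itself a member for 126 of the 450 members (28.0%) and for 335 of the 5402 others (6.20%). The nearest site was 5 to 20 bp away for 33.5% of members and 19.2% of the others.

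Genes outside the mitochondrial chromosome with a member on their strand numbered 419, of which 376 had 1 member, 27 had 2 and 16 had at least 3. Of the 12 genes named for their number of members, 9 had members in tRNA genes, nuclear copies of mitochondrial genes or ribosomal DNA. AL669831.3, a transcribed pseudogene on chromosome 1 (586071 to 827796, minus strand), had 11 members among 119 shared sites, 10 of them in nuclear copies of mitochondrial genes. AL592295.3, a lincRNA gene over a tRNA gene cluster (chromosome 1, 161403409 to 161470523, minus strand), had 9 among 34, 8 of them in tRNA genes. FP236383.1 and FP671120.1, lincRNA genes in the ribosomal DNA of chromosome 21, had 5 members each, among 41 and 48 shared sites. PCBD2 had 4 members, all in a nuclear copy of mitochondrial DNA, AL132780.1 had 4, all in TRR-ACG1-3, and AL049796.1 and CROCC had 4 each, 2 of them in tRNA genes. AJ003147.2 had 3, 1 of them in a tRNA gene.

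HFM1, PID1 and MIR663AHG, also with 4 members each, had none in annotated tRNA genes, nuclear copies of mitochondrial genes or ribosomal DNA. Ribosomal DNA was called only from annotated ribosomal DNA genes and contigs, so fragments of ribosomal RNA genes elsewhere, including in these genes, were not looked for. PID1, which encodes an adaptor protein with a phosphotyrosine interaction domain, held the member with the lowest mean time with sarkosyl (chr2, 229180920, minus strand, intron). That site had 0.374 and 0.478 with sarkosyl, and 0.493 and 3.55 without. HFM1, which encodes a helicase of meiosis, had its 4 members in an intron, with times of 0.581 to 0.663 and 0.687 to 0.831 with sarkosyl. MIR663AHG, a microRNA host gene, had 3 of its 4 members within 300 bp of a start.

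Further members with the lowest mean times with sarkosyl lay in repeated genes. The ribosomal DNA intron of FP236383.1 (chr21, 8394595, plus strand) had 0.427 and 0.524 with sarkosyl. The TRR-ACG2-1 site in an exon of LIMD1-AS1 (chr3, 45689025, minus strand), at base 47 of the tRNA gene, had 0.374 and 0.534, and 6.37 in sarkosyl-free replicate 2. Base 54 of TRR-ACG1-2 (chr6, 26537551) had 0.423 and 0.551. On a ribosomal DNA contig of chromosome 22, positions 166706 and 173272 had 0.384 and 0.513, and 0.408 and 0.541. Position 166701 of the same contig, 5 bp from the first of these, had 0.544 and 0.673 with sarkosyl, and 20 and 43.5 without. Its mean time without sarkosyl was the longest among members that both sarkosyl-free tables list.

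On the mitochondrial chromosome the members lay more on the minus strand, with 27 there and 10 on the plus strand, while the other shared mitochondrial sites had 371 and 452. On their own gene's strand lay 14 members, 4 of 31 shared sites in the ribosomal RNA gene MT-RNR1, 3 of 63 in MT-RNR2, 3 of 4 in the serine tRNA gene MT-TS1, 2 of 34 in MT-ND1, and 1 each in MT-CO1 (41 sites) and MT-ND6 (12 sites). Without sarkosyl 3 of the 37 mitochondrial members were listed in replicate 1 and 6 in replicate 2, 8.11% and 16.2%, against 29.5% and 23.8% of the other mitochondrial sites.

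Across 14 lists of gene families the share of members ran from 1.45% to 6.90%, below the 4.95% of all shared sites in 11 lists and above it in 3. That 4.95% includes nuclear tRNA genes. Outside them the share was 4.24%, and heat shock and chaperone genes, at 4.65%, lay above this value. The times with sarkosyl printed for these lists are low by the rule, so they are no contrast to the times without it. The series also differ in level, with medians over each whole table of 1.49 and 1.34 with sarkosyl and 2.23 and 8.00 without. Cytosolic ribosomal protein genes had 21 members among 534 shared sites (3.93%), in 19 of the 70 genes with a site, and 17 of them lay 0 to 60 bp after a start. RPS2, of the small subunit, had members 4 bp after a start (0.489 and 0.719 with sarkosyl, 2.98 and 4.79 without) and 13 bp after it (0.554 and 0.741 with sarkosyl, 2.16 in sarkosyl-free replicate 2). Replication-dependent histone genes had 10 members among 145 sites (6.90%), in 9 of 45 genes. HIST1H2AH, 17 bp after its start, had 0.656 and 0.658 with sarkosyl, and 0.368 and 0.186 without.

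Genes of hnRNP and SR splicing factors had 6 members among 257 sites (2.33%). HNRNPH1 had 1 of them 28 bp after a start, with 0.517 and 0.695 in the sarkosyl series, against 5.18 and 19.2 in the sarkosyl-free series. Immediate early genes, which serum and stress induce within minutes, had 4 among 142 (2.82%), in EGR1, FOSB and JUNB. The FOSB member, 50 bp after a start, had 0.630 and 0.558 with sarkosyl and was listed in neither sarkosyl-free table. Heat shock and chaperone genes had 4 among 86 (4.65%). HSP90AB1, an HSP90 chaperone gene, had a member 68 bp after a start, with 0.562 and 0.806 with sarkosyl, and 6.94 and 76.9 without. HSPA1B, an HSP70 chaperone gene, had one 38 bp after a start, with 0.617 and 0.808 in the sarkosyl series, against 1.22 and 0.206 in the sarkosyl-free series.

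The remaining lists had 4 members or fewer. Translation factor genes had 4 among 127 sites, including EIF4G2 (38 bp after a start; 0.531 and 0.702 with sarkosyl, 4.57 and 17.9 without). Small nucleolar RNA host genes had 4 among 148, with SNHG19 beside the SNHG12 and EPB41L4A-AS1 sites above. Pause and elongation factor genes had 1 among 32, the HEXIM1 site. Genes of the U-type spliceosomal RNAs had 2 among 39, proteasome subunit genes 1 among 24, nucleolar ribosome assembly genes 2 among 77, actin, tubulin and vimentin genes 2 among 59, and glycolysis enzyme genes 1 among 69, in GAPDH. Annotated polymerase III RNA genes other than tRNAs had 1 among 15, in the vault RNA gene VTRNA1-2 (0.517 and 0.720 with sarkosyl, 2.56 and 2.42 without).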

How the data were processed

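The deposited pausing times were fitted by the authors, 1 value per site, buffer and replicate number. Per the file headers a site also has the quartiles and median of an estimate, and the pausing time is the reciprocal of that median, called the rate. The submitters' processing notes name cutadapt 1.14, HISAT2 2.1.0, SAMtools, bedtools and the build hg38. How sites were called, and which model and prior gave the rate, is not given in the sources used here. No value column lacked a group (0).

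Sites were matched by chromosome, strand and position with Python 3.11.15, numpy 2.4.6, pandas 2.3.3 and scipy 1.17.1, annotated with GENCODE release 29 and RefSeq (GRCh38.p14), and plotted with matplotlib 3.10.9. Positions were read as counted from 1, and the composition at the listed base was alike on both strands (C at 73.4% of plus-strand and 71.6% of minus-strand sites). Windows of 61 bases were read from transcripts and promoters, and 686 read from both were identical. Intervals are Wilson 95% intervals. The sarkosyl-free pair was tested with limma 3.58.1 (R 4.3.3; lmFit and eBayes, intercept only, series centred on their medians, Benjamini-Hochberg adjustment over 13905 sites, threshold 0.05), tested on simulated data first. With no read numbers, the depth per site is unknown.

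The members, classes and gene lists were chosen with earlier results of these data known. Named by rule were the 6 members with the lowest mean log2 time with sarkosyl. Among members of all 4 tables, the 3 lowest and 3 highest without sarkosyl were named too. Up to 12 genes with at least 3 members, and up to 3 genes per list, were also named. Further members in tRNA genes or near starts whose sequence is shown were added after their values were seen. Some items are not reported here. Both sarkosyl tables hold no site on the minus strand of chromosome X.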

Additional observations from a re-analysis of the deposited data

How the results depend on the processing

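The median log2 difference between members and other shared sites without sarkosyl was -0.46 as the mean of both series. Without nuclear tRNA genes it was 0.080, with opposite signs in replicates 1 and 2 (-0.21 and 0.37). Also without mitochondrial and ribosomal DNA sites it was 0.051 (-0.185 and 0.287). Over sites within 300 bp of a start only it was 0.59, from -0.026 in replicate 1 and 1.20 in replicate 2. Without those, but with tRNA gene sites beyond 300 bp kept, it was -1.51 (-1.15 and -1.88). Leaving out 1 series gave -0.64 to -0.25. Without sarkosyl, limma with a trended and robust prior called 65 members shorter and 10 longer, against 0 and 0. In the shares that follow, the value of the others stands in brackets. A 5% quantile in the rule gave 54.9% listed without sarkosyl (34.5%), 37.5% in exons (38.5%, above the members) and 2.52% mitochondrial (4.82%). It gave 66.6% G or C before the site (58.9%), 56.0% with a site within 50 bp (32.0%) and 20.2% in tRNA genes (0.861%). A 20% quantile gave 45.0% with a site within 50 bp (30.8%), 9.05% in tRNA genes (0.214%) and 5.43% mitochondrial (4.69%, below the members). With at most 1 site per 1000 bp, 50.5% lay within 300 bp of a start, 48.2% in exons, 0.210% on the mitochondrial chromosome, 12.2% in tRNA genes, 25.4% had a site within 50 bp, and G or C stood at 66.0%. On the plus strand alone 2.26% were mitochondrial, and over sites 0 to 60 bp after a start alone G or C was 67.2%. Matching within 5 bp listed 71.4% without sarkosyl. A start window of 1000 bp held 50.9% and starts of coding genes alone 32.6%. Neighbour windows of 20 and 500 bp gave 39.4% and 64.0%. Members chosen on 1 sarkosyl series were listed without sarkosyl in 44.2% to 45.1% (33.7% to 33.8%). They lay within 300 bp of a start in 38.4% to 41.2% (31.3% to 31.6%) and in exons in 40.5% to 41.6% (38.2% to 38.3%). On the mitochondrial chromosome lay 3.00% to 4.59% (4.79% to 4.97%) and in tRNA genes 8.85% to 8.99% (0.382% to 0.395%). They had a site within 50 bp in 39.8% to 43.0% (31.3% to 31.7%), and G or C at 63.8% to 64.8% (58.4% to 58.5%). In 62 of 64 alternatives for shares, members stayed on the same side of the others, the exceptions being the exon share at 5% and the mitochondrial share at 20%. No paired analysis was possible because the sarkosyl series chose the members and the labels do not say which replicates of the buffers share a culture. No test between buffers was run, and the limma test used the sarkosyl-free series alone. The unknown depth limits what can be said of unlisted sites, since a site absent from a table was not necessarily without polymerase.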
